A study of Mus musculus with 9 samples.

Results

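MHC class II molecules are heterodimers on antigen-presenting cells that display peptides taken from endocytosed protein to CD4 T cells. The 9 genes described here encode or control that system, and every probe set annotated to one of them was used, whatever its values. They are read by 10 probe sets of their own and 1 probe set shared with another gene, among 12488 probe sets on the array, which name 8252 genes with a probe set of their own. Of the 10, 9 probe sets for 8 genes passed a filter on low signals, and that of H2-Ob did not.

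H2-Aa and H2-Ab1 encode the alpha and beta chains of I-A, and H2-Eb1 encodes the beta chain of I-E. The I-E alpha chain gene, H2-Ea, is silenced by a promoter deletion in the C57BL/6 strain, so these mice carry I-A alone on their cells. Cd74 encodes the invariant chain, which escorts new class II dimers to the endosome and blocks their groove. H2-DMa and H2-DMb1 encode the chains of H2-DM, which exchanges the remaining invariant chain peptide for antigen peptide. H2-Oa and H2-Ob encode H2-O, an inhibitor of H2-DM that is known mainly from B cells. Ciita is the co-activator that switches the whole set on through the X and Y boxes of their promoters. In skin, the class II molecules are carried chiefly by Langerhans cells, dermal dendritic cells and macrophages.

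Whole skin came from 5 knockout mice (Cd1d -/-) and from 4 wild-type mice (Cd1d +/+), all unirradiated and on the C57BL/6 background. CD1d presents lipids to natural killer T cells, and the comparison asks how unirradiated skin without it differs from normal skin. Per the labels, age and sex were matched between genotypes, each mouse was sampled singly, and each had its own Affymetrix MG-U74 array. No age, sex or skin site is given, and the Cd1d allele is named no further. Signals are in arbitrary units of Microarray Suite 5.0 (MAS5), and log2 differences are knockout minus wild type. Arrays have no sequencing depth, so the number of mice limits the precision.

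The targeted gene fitted the labels in direction. Cd1d1 read 58.2, 65, 79.6, 47.6 and 51.1 in knockout 1 to 5, against 112.4, 101.1, 91 and 130 in wild type 1 to 4. The groups did not overlap (exact two-sided permutation test, p = 0.0159, and limma adjusted p = 0.242 over all kept probe sets). The knockout mean was still 55.1% of the wild-type level on the log2 scale, and all 9 arrays reached the filter signal. What the remaining signal reads was not tested. Of 6 epidermal keratinocyte markers, Krt1, Krt10, Lor and Flg were kept, while the probe sets of Krt5 and Krt14 lay below the filter in both groups. Krt10 averaged 6835 ± 845 in knockout and 6333 ± 403 in wild-type skin (SD, n = 5 and 4). H2-Ea, the gene silenced in this strain, read between 2.3 and 15.5 in the knockout arrays and between 4.3 and 15.3 in the wild-type arrays. All 9 of these H2-Ea values lie below the filter signal, which was 43.4 to 53.3 depending on the array. The hair follicle list, keratins and regulators of the growing follicle, set the knockout arrays apart from each other. Its median per array, on a log2 scale centred on the 9 arrays, was 0.92, 2.75 and 2.54 in knockout 1, 2 and 5. It was -0.82 and -1.74 in knockout 3 and 4, and between -1.36 and -0.01 in the wild-type arrays.

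The promoters of the class II genes show what they have in common in sequence. RefSeq promoter windows of GRCm38.p6 were matched by symbol for 6 of the 9 genes, H2-Aa, H2-Eb1, H2-DMa, H2-DMb1, H2-Oa and H2-Ob. In 5 of these genes the 250 bases before the start hold GNAAC, part of the X box, followed by TGATTGG, the Y box core bound by NF-Y. The stretches around both words are printed 5′ to 3′ on the strand of the gene, with the X word and the Y word in capitals, because the spacing is visible only in the letters.
H2-Aa: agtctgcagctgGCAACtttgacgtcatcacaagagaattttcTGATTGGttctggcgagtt
H2-Eb1: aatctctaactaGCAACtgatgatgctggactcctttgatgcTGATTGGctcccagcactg
H2-DMb1: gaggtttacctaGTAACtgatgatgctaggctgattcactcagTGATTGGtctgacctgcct
H2-Oa: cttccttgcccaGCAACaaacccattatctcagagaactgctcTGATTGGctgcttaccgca
H2-Ob: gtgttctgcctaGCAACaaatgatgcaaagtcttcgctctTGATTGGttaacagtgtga

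The H2-Aa stretch lies at chr17:34287855-34287916 on the minus strand. The other 4 lie on the plus strand, H2-Eb1 at chr17:34305764-34305824, H2-DMb1 at chr17:34153085-34153146, H2-Oa at chr17:34092291-34092352 and H2-Ob at chr17:34238806-34238864. The X word begins 76 bases before the annotated start in H2-Oa, 81 in H2-Aa, 87 in H2-Ob, 91 in H2-Eb1 and 94 in H2-DMb1. Between the words lie 26 bases in H2-Aa, H2-DMb1 and H2-Oa, 25 in H2-Eb1 and 23 in H2-Ob. The search allowed 20 to 45 bases between the words and read both strands. Such a pair occurs in 197 of the 32851 windows in the table. This pair of words was chosen after the class II windows had been read. With the words listed earlier, AGNNAC followed by ATTGG, 4 of the 6 genes matched (H2-DMb1, H2-Eb1, H2-Oa and H2-Ob), against 3.82% of all windows. The Y core ATTGG alone, which lies inside TGATTGG, was in all 6 genes and in 33.8% of all windows. The X word AGNAAC alone was in 4 of the 6 genes and 42.3% of windows. The 2 windows of H2-DMa hold no pair. A match is a description of letters and not a measured binding site.

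**Figure D1:**
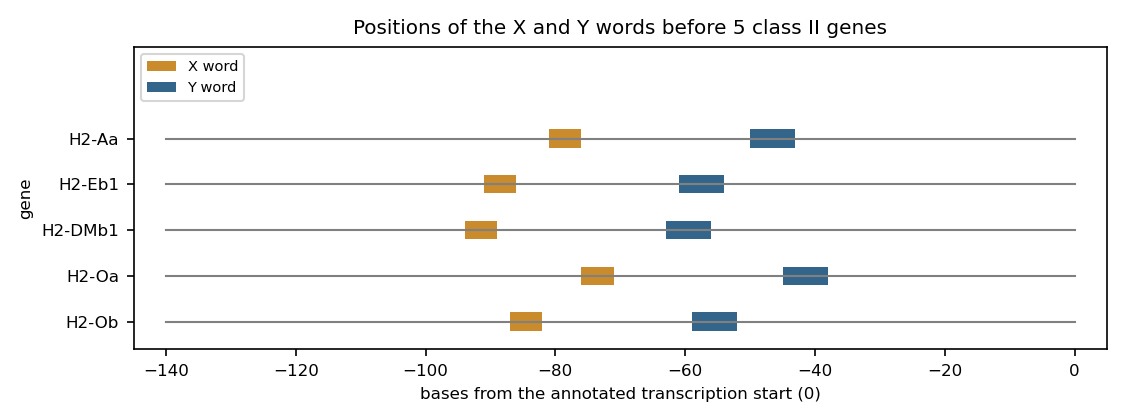
Positions of the X word (orange) and the Y word (blue) in bases from the annotated transcription start, for the 5 class II genes whose window holds the pair. The X word begins 76 to 94 bases before the start, and the gap between the words is 23 to 26 bases.

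In knockout skin each of the 9 kept class II probe sets averaged a lower signal than in wild-type skin, with a median log2 difference of -0.42, and none passed the test. Over all 7658 kept probe sets the median was 0.01, and 48.8% had a lower signal in the knockout. Of the 9 class II probe sets, 0 passed limma at an adjusted p of 0.05, against 0.0522% of all kept probe sets, 0.0261% lower and 0.0261% higher, and the smallest adjusted p was 0.336. At an unadjusted p under 0.05, 4 were lower (H2-Aa, H2-Ab1, H2-Eb1 and the brighter H2-DMa probe set), against 3.96% of all kept probe sets. These counts are descriptions, since the 9 are not separate observations. Some of them correlate at up to 0.97 among the mice, and H2-DMa is counted by 2 probe sets. The members were also chosen with earlier results of these data known. The groups overlapped for each of the 9, while they did not overlap, with the knockout lower, for 1.38% of all kept probe sets. In whole skin, fewer cells that carry class II and less class II RNA per cell cannot be told apart.

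**Figure D2:**
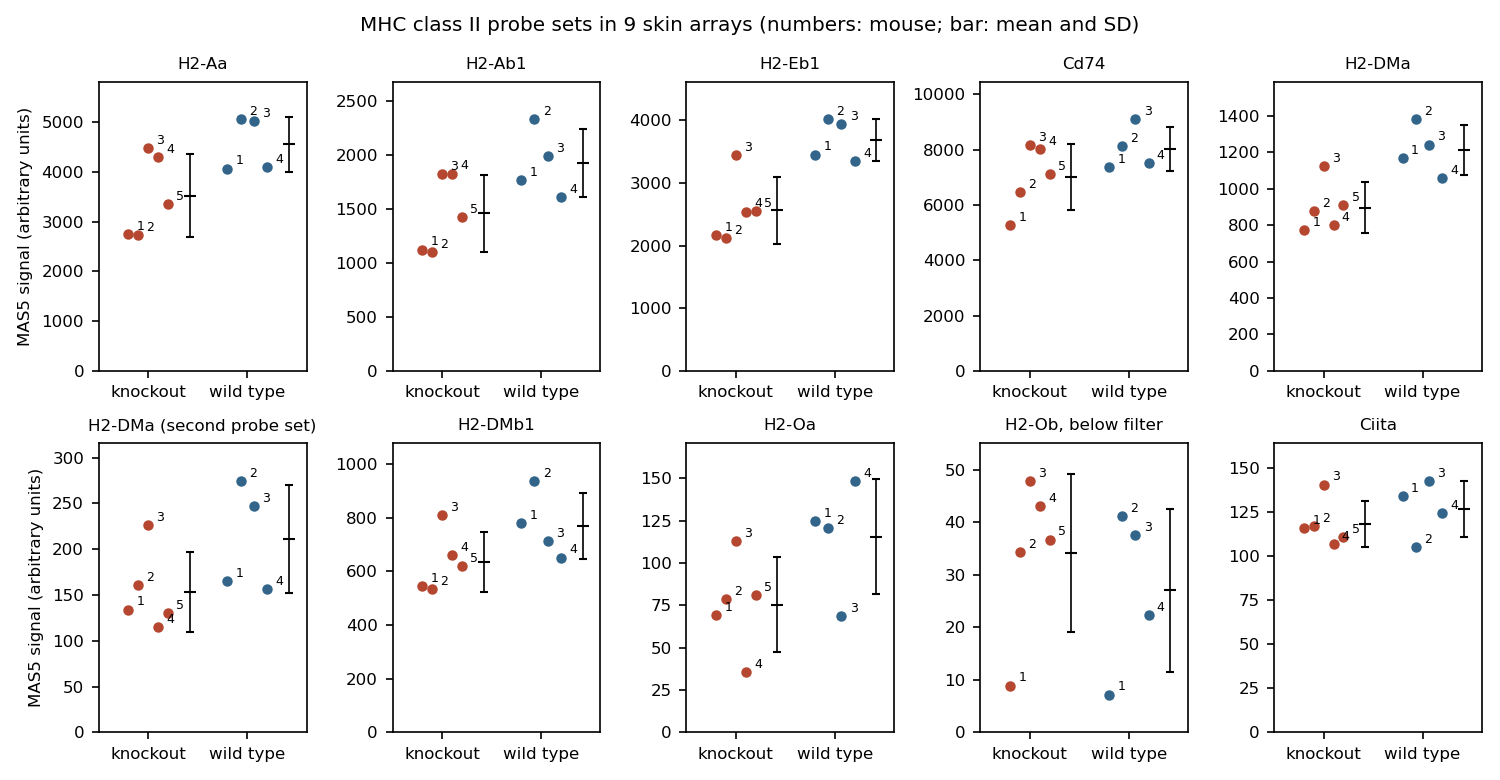
MAS5 signal of the 10 class II probe sets in each array, knockout on the left and wild type on the right of each panel. Numbers are mice and bars are mean and SD. Knockout 3 lies inside the wild-type range of H2-Aa and H2-Eb1, and knockout 1 and 2 lie below it. H2-Ob lies below the filter in all 9 arrays.

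The peptide-binding chains came first. H2-Aa read 2743, 2727, 4482.6, 4288.7 and 3357.1 in knockout 1 to 5, against 4063.5, 5055.8, 5012.7 and 4094.8 in wild type 1 to 4. Knockout 1, 2 and 5 lay below every wild-type array, and knockout 3 and 4 lay inside the wild-type range. The log2 difference was -0.40 (SE 0.17, 95% interval -0.76 to -0.03, limma adjusted p = 0.505).

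H2-Ab1, the partner chain of H2-Aa, divided the arrays in the same way. It read 1124.1, 1097.5, 1822.8, 1828.4 and 1424.1 in knockout 1 to 5, against 1770.6, 2331.1, 1987.1 and 1611.9 in wild type 1 to 4. Again knockout 1, 2 and 5 lay below all wild-type arrays and knockout 3 and 4 did not. The log2 difference was -0.42 (SE 0.18, limma adjusted p = 0.517).

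H2-Eb1, whose alpha chain is missing in this strain, had the smallest p of the group. It read 2165.5, 2116.9, 3444.2, 2541.6 and 2544.9 in knockout 1 to 5, against 3452.6, 4016.5, 3937.9 and 3350.1 in wild type 1 to 4. Knockout 3 lay inside the wild-type range and the other 4 knockout arrays lay below it. The mean was 68.6% of the wild-type level on the log2 scale, a difference of -0.54 (95% interval -0.86 to -0.23, limma adjusted p = 0.336).

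Cd74 differed less. Its signal was 5279.7, 6464.2, 8161.8, 8012.1 and 7111.6 in knockout 1 to 5, against 7361.9, 8113.3, 9094.3 and 7497 in wild type 1 to 4. Knockout 1, 2 and 5 lay below the wild-type range, knockout 5 by a small margin. The log2 difference was -0.21 (95% interval -0.50 to 0.08, limma adjusted p = 0.659), so its interval includes both no difference and the difference of H2-Aa. Without knockout 1 the difference was -0.11.

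The peptide exchange factor H2-DM was measured by 3 probe sets and a shared one. The brighter probe set of H2-DMa read 771.8, 875.5, 1121.8, 798.3 and 910.7 in knockout 1 to 5, against 1168.3, 1380.9, 1242.3 and 1058.5 in wild type 1 to 4. Only knockout 3 reached the wild-type range of this probe set. The log2 difference was -0.44 (95% interval -0.74 to -0.15, limma adjusted p = 0.370). The dimmer probe set of H2-DMa gave 134, 161.2, 226.3, 115.3 and 130.1 in knockout 1 to 5, against 165.4, 274.7, 247.3 and 156.6 in wild type 1 to 4. Its log2 difference, -0.46 (SE 0.23, limma adjusted p = 0.570), is close to that of the brighter one, with a wider spread and with 2 knockout arrays inside the wild-type range.

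H2-DMb1, the beta chain, read 543.9, 534.7, 810.1, 660.3 and 620.7 in knockout 1 to 5, against 779.7, 937.9, 713.9 and 651.4 in wild type 1 to 4. Knockout 3 and 4 lay inside the wild-type range. The log2 difference was -0.29 (SE 0.15, limma adjusted p = 0.594), and -0.19 without wild type 2. The probe set shared by H2-DMb1 and its close copy H2-DMb2 averaged 128 ± 21.4 in knockout skin, against 154 ± 31.1 in the wild type (SD, n = 5 and 4), a difference of -0.26 on the log2 scale (limma adjusted p = 0.686). H2-DMb2 alone averaged 109 ± 33.8 in knockout skin, against 129 ± 44.1 in the wild type, a difference of -0.24 (limma unadjusted p = 0.360). Without wild type 1, which read 195.1, it was -0.024. Copies this alike can share probe sequence, so the chains H2-DMb1 and H2-DMb2 are separated here by annotation only.

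The H2-DM inhibitor H2-O was close to or below the filter. H2-Oa read 69.1, 78.7, 113.1, 35.4 and 80.8 in knockout 1 to 5, against 124.7, 120.4, 68.4 and 148.5 in wild type 1 to 4. Wild type 3 lay among the knockout arrays and knockout 4 was the lowest of all 9. The log2 difference of -0.65 had the widest interval of the 9 (-1.36 to 0.05, limma adjusted p = 0.566). It was -0.40 without knockout 4, where H2-Eb1 stood at -0.55, and -0.37 with a pseudocount of 64. H2-Ob read 8.9, 34.4, 47.9, 43 and 36.7 in knockout 1 to 5, against 7.2, 41.1, 37.5 and 22.3 in wild type 1 to 4. All 9 values lie below the filter signal of their array, so H2-Ob was not tested in the filtered fit and no direction is read from it.

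Ciita, the switch of the set, differed little between the genotypes. It read 116.3, 117.3, 140.8, 107.2 and 111.2 in knockout 1 to 5, against 134.3, 105.5, 143 and 124.8 in wild type 1 to 4. Every knockout array lay within the wild-type range. The log2 difference was -0.10 with a 95% interval from -0.41 to 0.22 (limma adjusted p = 0.867). That interval holds both 0 and values as low as the differences of H2-Aa and H2-DMb1, so a difference of that size is not excluded. With 1 array left out it ran from -0.18 (without wild type 2) to -0.035 (without wild type 3).

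The class II genes did not vary alike among the mice. After the mean of each genotype was subtracted, H2-Aa and H2-Ab1 correlated at r = 0.97 over the 9 arrays, and H2-Aa correlated with Cd74 at 0.89 and with H2-Eb1 at 0.88. The 2 probe sets of H2-DMa correlated at 0.88 and H2-DMa with H2-DMb1 at 0.80. H2-DMb1 also correlated at 0.88 with H2-Ab1 and 0.86 with H2-Eb1, and H2-DMa at 0.84 with H2-Eb1. Between H2-Aa and H2-DMa the value was 0.59. H2-Oa correlated at -0.25 with H2-Aa and at 0.39 with H2-DMa, and Ciita at 0.12 with H2-Aa. These coefficients describe 9 arrays that share one scaling, and bright probe sets carry less relative error than the dim ones of H2-Oa and Ciita.

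**Figure D3:**
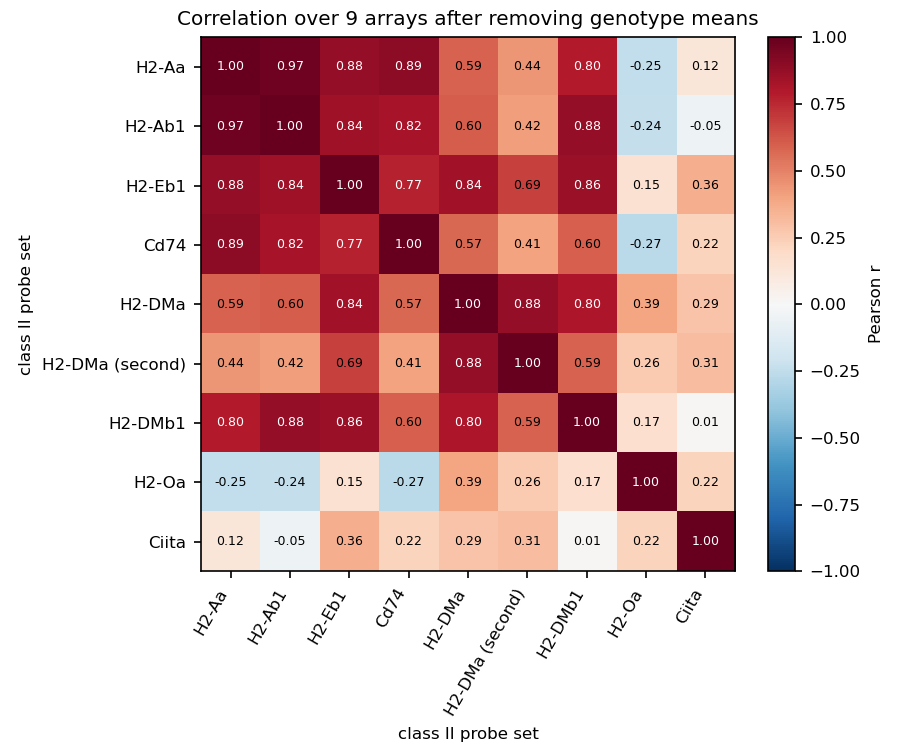
Pearson correlation of log2 signal between the 9 kept class II probe sets over 9 arrays after the mean of each genotype was subtracted. H2-Aa, H2-Ab1, H2-Eb1 and Cd74 correlate at 0.77 to 0.97 with each other, H2-DMb1 at 0.60 to 0.88 with these 4, and the H2-Oa and Ciita rows stay between -0.27 and 0.39.

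Knockout 4 separated the genes most. Relative to the wild-type mean its log2 signal was -0.08 for H2-Aa, -0.06 for H2-Ab1 and 0.00427 for Cd74. In the same array it was -0.53 for H2-Eb1, -0.60 for H2-DMa and -1.65 for H2-Oa. The log2 ratio of Cd74 to H2-DMa, set to 0 at the wild-type mean, was 0.60 in knockout 4. It was between 0.05 and 0.24 in the other 4 knockout arrays and between -0.17 and 0.15 in the wild-type arrays. This array and this pair of genes were singled out after their values were seen. Knockout 3 was the opposite case, with 0 of the 9 probe sets below the wild-type range. That count was 7 in knockout 1, 6 in knockout 2, 4 in knockout 4 and 7 in knockout 5.

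The probe sets of other genes that varied most like the class II genes were listed by the same genotype-centred correlation, over 6910 probe sets with 1 gene. No other gene followed H2-Aa as closely as H2-Ab1 did. For each other class II gene, some probe sets of other genes were closer to H2-Aa. Of the 6910 probe sets, 18 (0.26%) correlated more closely with H2-Aa than Cd74 did, and 22 (0.32%) more closely than H2-Eb1. That number was 95 (1.37%) for H2-DMb1, 574 (8.31%) for the brighter H2-DMa probe set and 2764 (40%) for Ciita. Next to H2-Aa stood Camk2b, Cavin1, Tap1, Rnf19b, Napsa, Rnpepl1, Mapkapk5 and H2-D1, with r from 0.92 to 0.96. Tap1 is the peptide transporter of class I presentation and H2-D1 a class I heavy chain. Next to Cd74 stood Pitpna, Nbl1, Ank, Laptm5, Atp2a1, Rarg, Pou3f1 and Relb, with r from 0.89 to 0.94. Laptm5 is a lysosomal protein of white blood cells and Relb an NF-kappaB subunit. Next to H2-DMa stood Psmb10, an immunoproteasome subunit, then Jun, Aup1, Esrra, Tnni2, Sprr2b, Nudt19 and Znhit2, with r from 0.89 to 0.93. With 9 arrays and 6910 probe sets, high values of r are common, so the lists are descriptions.

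On chromosome 17 most class II genes stand together, and the genes between them were read in gene order. The gene table lists 16 genes from H2-Oa to H2-Ea, of which 8 are no members but have a probe set of their own and 6 of these 8 were kept. All 6 had lower values in the knockout, with a median log2 difference of -0.18, and 0 passed limma's test. Tap1 differed by -0.27 (limma adjusted p = 0.651) and Tap2, its partner, by -0.35 (adjusted p = 0.612). The immunoproteasome subunits Psmb8 and Psmb9 differed by -0.12 and -0.06, and the bromodomain gene Brd2 by -0.04. H2-DMb2 is the sixth, and its lower value rests on wild type 1. Cd74 on chromosome 18 and Ciita on chromosome 16 lie elsewhere, and the targeted Cd1d1 is on chromosome 3. Lower values were not particular to class II. B2m, the class I light chain gene on chromosome 2, differed by -0.35 (limma adjusted p = 0.399). Its groups did not overlap, as in 1.38% of all kept probe sets with the knockout lower. H2-K1, a class I heavy chain gene, differed by -0.13, -0.30 and -0.15 at its kept probe sets, and none passed limma's test. At the probe sets with -0.13 and -0.30, knockout 3 lay above every wild-type array.

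Genes that prepare peptides for class II had lower values in 6 of 7 cases, with a median log2 difference of -0.24, and 0 passed limma's test. Ctss, the protease that removes the invariant chain, read 1201.8, 1093.5, 1616.1, 1508.3 and 1245.3 in knockout 1 to 5, against 1838.2, 1888.6, 2207.6 and 1670.5 in wild type 1 to 4. Unlike those of the class II genes, its groups did not overlap (log2 -0.52, limma adjusted p = 0.336). The same holds, with the knockout lower, for 1.38% of all kept probe sets. Ctss lies on chromosome 3, as the targeted Cd1d1 does, and whether this location has a part in its values was not tested. Ctsl, the related protease of keratinocytes and thymic epithelium, averaged 1347 ± 156 in knockout skin, against 1324 ± 161 in the wild type (log2 0.02). Lgmn, which makes early cuts in antigens, differed by -0.46 (limma adjusted p = 0.413). Ifi30, the thiol reductase that opens disulphide bonds of antigens, differed by -0.46 too (adjusted p = 0.607) and shared the high values of H2-Aa in knockout 3 and 4, at 409 and 462.2.

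The factors that bind the X and Y boxes were not all lower. Of 4 kept genes, 3 had higher values in the knockout, with a median log2 difference of 0.11, and 0 passed limma's test. These 3 are subunits of NF-Y, which binds the Y box. The only kept factor of the X box, the RFX subunit Rfxank, had a lower value. The NF-Y subunit Nfya averaged 174 ± 14.0 in knockout skin, against 153 ± 31.4 in the wild type (log2 0.21). Nfyb differed by 0.32 with all 5 knockout arrays above every wild-type array (limma adjusted p = 0.514), as in 140 of the 7658 kept probe sets. Nfyc differed by 0.02 at its brighter probe set, and Rfxank by -0.19. The dimmer kept Nfyc probe set differed by 0.70 (limma adjusted p = 0.569), with knockout 4 at 160.6 and every other array between 26.7 and 74. Rfx5 and Rfxap had no probe set of their own in the annotation used here, and Creb1 and Rfx1 did not pass the filter. On the interferon gamma route that induces Ciita, 7 genes were kept, 5 with higher and 2 with lower values, a median of 0.08, and 0 passed. Irf1, the transcription factor that acts on the Ciita promoter, averaged 247 ± 70.5 in knockout skin, against 227 ± 16.2 in the wild type (log2 0.08). The receptor chain Ifngr1 differed by -0.27 and Irf8, a factor of myeloid cells, by -0.37 (limma adjusted p = 0.463). Ifng itself lay below the filter in both groups.

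Among markers of cells that carry class II, those of macrophages and dendritic cells mostly had lower values and those of B cells did not, and none passed limma's test. All 11 kept macrophage markers had lower values, with a median of -0.32. Their median per array was between -0.29 and 0.07 in the knockout arrays and between 0.10 and 0.21 in the wild-type arrays. Their summed signal was 9418 to 11325 in knockout and 11493 to 13450 in wild-type skin, and Marco and Msr1 did not pass the filter. Csf1r differed by -0.41, C1qa by -0.38, Adgre1 by -0.39 and Lyz2 by -0.34, each at its brightest kept probe set. Mrc1 and C1qc differed less, by -0.08 and -0.09. Of 6 kept dendritic and Langerhans cell markers 5 had lower values (median -0.27), with a summed signal of 1004 to 1659 in knockout and 1309 to 1856 in wild-type skin. The largest part of that sum is Fscn1, at 500.2 to 863.2 in knockout and 518.4 to 1147.3 in wild-type skin. The kept probe set of Cd83 reached the filter signal in only 4 arrays, and knockout 3 lay above every wild-type array. Among the 6 markers Itgax, an integrin of dendritic cells, differed by -0.39 (limma adjusted p = 0.505) and Epcam, found on Langerhans cells and follicle keratinocytes, by -0.19. Xcr1, a receptor of cross-presenting dendritic cells, differed the other way, by 0.26, and the second Flt3 probe set by 0.02. The array medians did not follow the class II values throughout. The dendritic median was lowest in knockout 4, at -0.60, and the macrophage median of the knockout arrays was highest in knockout 5, at 0.07. Ccr7, Ly75 and Zbtb46 lay below the filter, and the Langerhans cell marker Cd207 had no probe set of its own in the annotation used here. The 7 kept leukocyte markers were all lower too (median -0.35), with sums of 2656 to 3391 in knockout and 3370 to 4011 in wild-type skin. They were not lower by a like amount. Ptprc, found on white blood cells at large, differed by -0.06 and -0.03 at its kept probe sets, and Tyrobp by -0.06. Laptm5, Coro1a and Itgb2 differed more, and their groups did not overlap, as in 1.38% of all kept probe sets with the knockout lower.

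Other carriers and partners of class II were near the lower end of the array. Of the B cell markers 3 were kept, 2 with higher values (Cd79a by 0.71 and Pax5 by 0.26) and Ms4a1 at -0.0096, a median of 0.26. That median ran from 0.0024 without wild type 4 to 0.51 without wild type 2. Their sums were 149 to 245 in knockout and 149 to 239 in wild-type skin, and Cd79b, Cd22, Blk and Cr2 did not pass the filter. Of the T cell markers Cd3e, Cd3g and Cd4 were kept, with sums of 155 to 304 in knockout and 175 to 357 in wild-type skin. Cd4, the co-receptor for class II, averaged 100.8 ± 30.3 in knockout skin, against 106 ± 25.1 in the wild type (log2 -0.08). The costimulatory ligand Cd86 averaged 40.3 ± 12.7 in knockout skin, against 68.25 ± 15.9 in the wild type, at its kept probe set (log2 -0.80, limma adjusted p = 0.443). That probe set passed the filter through the wild-type arrays and knockout 4. Knockout 1, 2, 3 and 5 lay below the filter signal of their array, so the size of the difference is uncertain. Its other probe set lay below the filter in all 9 arrays and differed the other way, by 0.57. Cd80 and Lag3 did not pass the filter, Lag3 with 3 arrays at or above the filter signal.

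When the fit included the macrophage median of each array, the log2 difference was -0.10 for H2-Aa (SE 0.26), -0.06 for H2-Ab1 (SE 0.28) and 0.0052 for Cd74 (SE 0.21). It was -0.41 for H2-Eb1 (SE 0.24) and -0.45 for H2-DMa (SE 0.23), with limma adjusted p of 0.746 and 0.734. The differences of H2-Oa (-1.26), the dimmer H2-DMa probe set (-0.70) and Ciita (-0.21) were larger than without it. The macrophage median lies lower in every knockout array than in every wild-type array, so it and the genotype are hardly separable, and the standard errors are large.

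The knockout arrays with the lowest H2-Aa and H2-Ab1 were those with the highest hair follicle medians. Krt25, which belongs to the inner root sheath keratins, read 2647.9, 4915.8 and 2892.5 in knockout 1, 2 and 5, the arrays where H2-Aa lay below the wild-type range. It read 52.1 and 4.6 in knockout 3 and 4, where H2-Aa lay inside that range, and between 3 and 148.3 in the wild-type arrays. When the fit included the hair follicle median, the class II median was -0.21. Under that covariate the difference of H2-Aa was -0.21 (SE 0.15) and that of H2-Ab1 -0.21 (SE 0.17), each smaller than without it. That of H2-Eb1 was -0.43 (SE 0.15) and that of H2-DMa -0.42 (SE 0.16), with limma adjusted p of 0.405 and 0.428. Without knockout 1, 2 and 5 the class II median was -0.063, with -0.05 for H2-Aa, -0.31 for H2-Eb1 and -0.35 for H2-DMa. Whether hair growth has a part in the class II values was not tested beyond these values, since no wild-type array had a hair follicle median above 0.

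**Figure D4:**
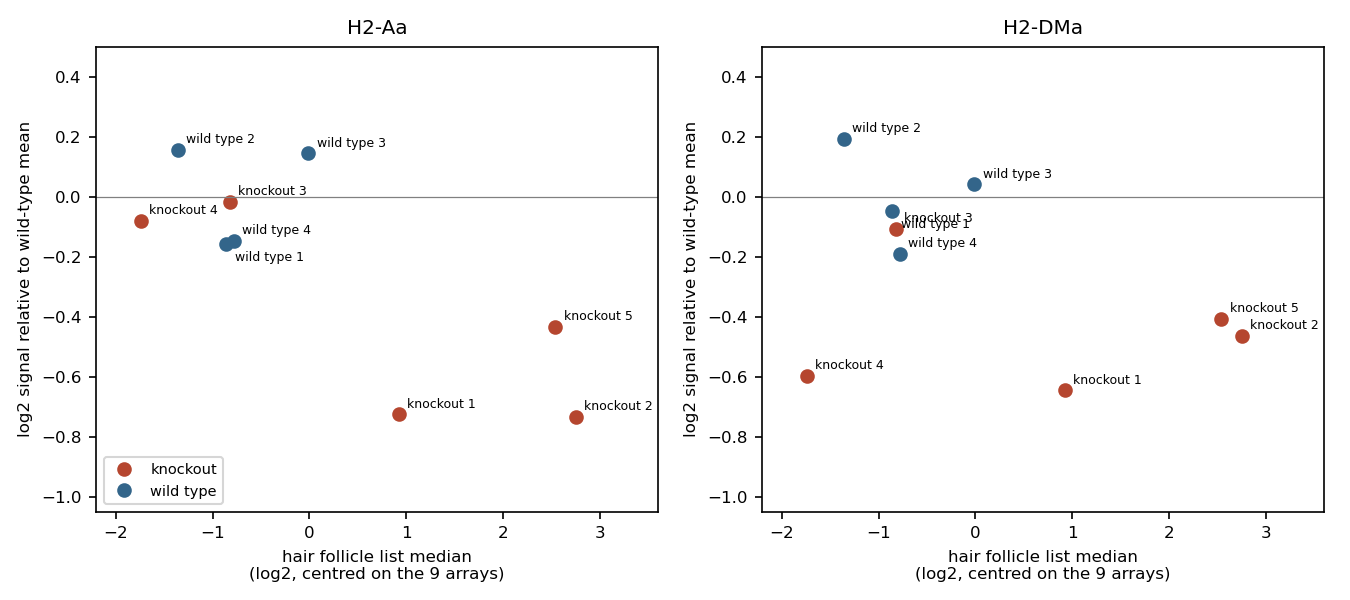
Log2 signal of H2-Aa (left) and H2-DMa (right) relative to the wild-type mean, plotted for each array against its hair follicle list median. Knockout 1, 2 and 5 lie at the right with low H2-Aa. Knockout 4 lies at the far left, at -0.08 for H2-Aa and -0.60 for H2-DMa.

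The deposited values carry 7 decimals in knockout 1 and 2 and wild type 2, 3 and 4, and 9 decimals in the other 4 arrays. What this difference marks is not stated. Within the 7-decimal arrays the class II median was -0.57, and within the 9-decimal arrays, with wild type 1 as their lone control, it was -0.17. H2-Aa differed by -0.78 in the 7-decimal set (limma adjusted p = 0.171) and by -0.02 in the 9-decimal set. H2-Eb1 differed by -0.81 and -0.30, H2-DMa by -0.57 and -0.32, and Cd74 by -0.49 and 0.074. With the number of decimals as a block the class II median was -0.47. In the 9-decimal set the fit assumes that the lone wild-type array varies like the knockout arrays. The knockout arrays of the 7-decimal set are also 2 of the 3 with hair follicle medians above 0, and the third, knockout 5, is in the 9-decimal set. The part of either in the class II values was not tested further.

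**Figure D5:**
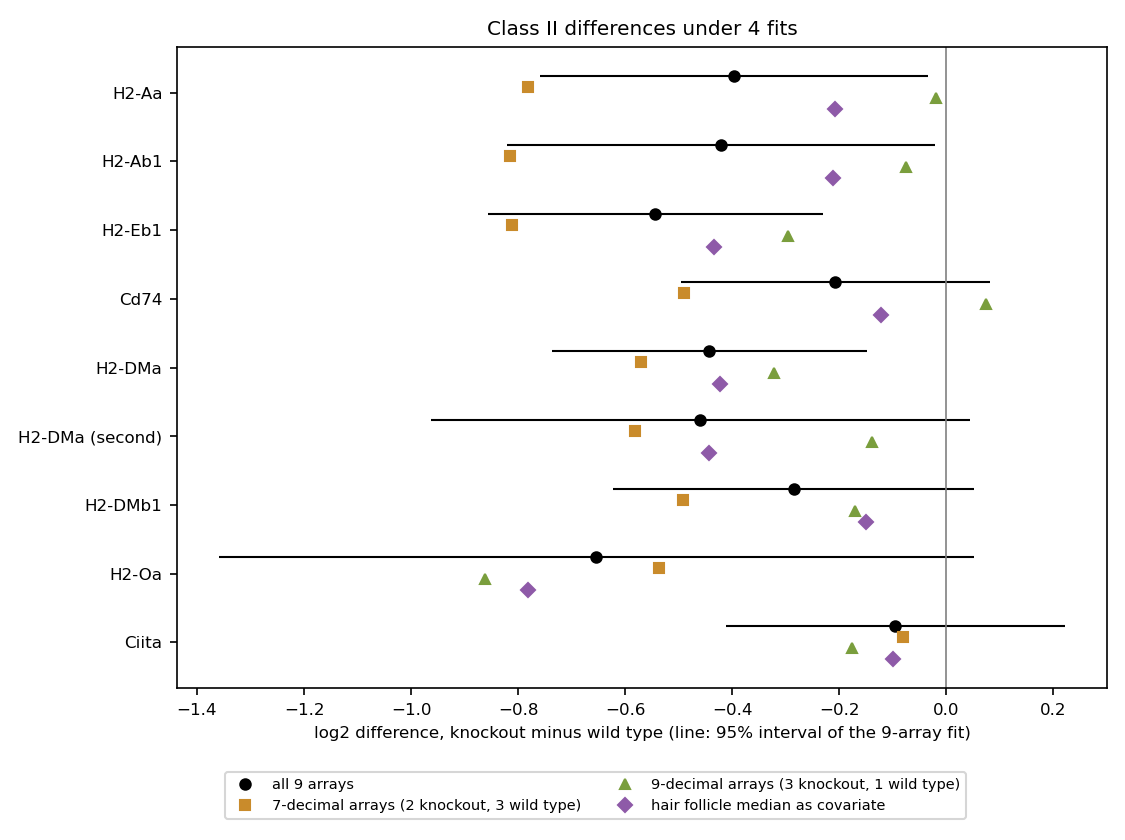
Log2 differences (knockout minus wild type) of the 9 kept class II probe sets in the fit of all 9 arrays with its 95% interval, within the arrays of 7 and of 9 decimals, and with the hair follicle median in the fit. H2-Aa, H2-Ab1 and Cd74 spread from -0.82 to 0.074, while the brighter H2-DMa probe set stays between -0.57 and -0.32.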

How the data were processed

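RNA of whole skin from 9 mice was hybridised to Affymetrix MG-U74 arrays, 1 array per mouse. Signals were computed by the authors in Microarray Suite 5.0, per the labels. The authors deposited natural log values, as the numbers themselves show: the exponential of 100% of them is a multiple of 0.1 to within 0.002, and the 2% trimmed mean of these signals is 200.1 in every array. The table has 1 missing value, at none of the class II probe sets. Detection calls were not used here.

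They were rescaled to log2, with no pseudocount and no further normalization. The filter required a signal no lower than the 40th percentile in 4 or more of the 9 arrays. After removal of 66 control probe sets, 7658 were kept. Gene names came from the platform annotation, updated through Entrez identifiers for 10817 of 10833 probe sets with 1 gene. A probe set with several genes (396) was named only as shared.

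Differences were tested with limma 3.58.1 in R 4.3.3 (lmFit, eBayes with trend), two-sided, Benjamini-Hochberg adjusted over the 7658 probe sets, threshold 0.05. The procedure was tested on simulated data. Lists used 1 probe set per gene, the brightest kept one. The named genes are all member probe sets and a fixed set of pathway and cell type genes, with the 8 most alike probe sets for H2-Aa, Cd74 and H2-DMa. The members and lists were chosen with earlier results of these data known, and the genes between H2-Oa and H2-Ea were added after class II values had been seen. Alternatives changed the filter, scaling, pseudocount, trend, array weights, covariates and arrays used. Promoter words were searched in RefSeq windows with Python 3.11.15. Same-numbered mice of the 2 genotypes share only a number: the correlations of their deviations from the genotype means were 0.11, -0.01, -0.05 and 0.02.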

Additional observations from a re-analysis of the deposited data

Results flagged for a closer look

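Each member probe set was checked in each genotype for an array far from the rest, which made 22 groups. Chance flags about 1 in 20 such groups, and 1 was found. H2-Ob read 8.9 in knockout 1, against 34.4 in the nearest other knockout array, a gap that takes up 0.803 of the log2 range of the group, where 0.71 is the critical value for 5 samples. All H2-Ob values lie below the filter signal.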

How the results depend on the processing

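In each of the 25 alternatives 0 class II probe sets passed limma's threshold, and 7 to 9 had lower values in the knockout, 7 being all that the 60th percentile filter keeps. The class II median of -0.42 ran from -0.51 to -0.32 when 1 array was left out. It moved to -0.17 within the 9-decimal arrays and to -0.21 with the hair follicle median in the fit. In settings added after the data were seen it was -0.18 without knockout 1 and 2, and -0.063 without knockout 1, 2 and 5. With the label number as a replicate block, which drops knockout 5, the median was -0.41, the smallest limma adjusted p of the class II probe sets was 0.476, and no class II call changed. With that block 1 probe set of all 7658 passed, against 4 without it. Over all probe sets the calls ran from 0 (within the 9-decimal arrays, with the macrophage median as a covariate, and without knockout 1, 2 and 5) to 10 (within the 7-decimal arrays). They were 4 with all arrays, 6 with no filter, 7 with pseudocount 64, 9 with array weights, 3 with the hair follicle median, 2 without knockout 1 and 2, and 4 to 8 with 1 array left out.

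The difference of Cd74 turned to 0.074 within the 9-decimal arrays, 0.0052 with the macrophage covariate and 0.018 without knockout 1, 2 and 5. The T cell list median of 0.02 turned to -0.18 with no filter, -0.034 with quantile normalization, -0.026 with median centring, -0.0054 with pseudocount 16, -0.019 with pseudocount 64, -0.10 with array weights and -0.55 within the 7-decimal arrays, and ran from -0.14 to 0.24 with 1 array left out. The keratinocyte median of 0.13 turned to -0.073 within the 7-decimal arrays and ran from -0.056 to 0.20 with 1 array left out. The interferon route median turned to -0.019 within the 7-decimal arrays, and the hair follicle median of 1.51 to -0.24 without knockout 1, 2 and 5. The causes were not tested. MAS5 gives dim probe sets a large relative error, which limits H2-Oa, H2-Ob and Ciita. Labels name single mice, but litters and cages are not given.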
